A study of Mus musculus with 16 samples.

Results

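The comparison sets 4 arrays labelled STAT4 knockout against 4 arrays labelled STAT6 knockout. The arrays were chosen by their titles and make up 8 of the 16 arrays of the series. The other 8 are 4 wild-type and 4 HDC knockout arrays (HDC makes histamine), which entered the shared fit. Each array holds RNA of CD11b-positive cells, a myeloid fraction, pooled from 5 mice that the labels give as male. Spleen and bone marrow were each read on a control diet and after 3 months of high-fat diet, a model of atherosclerosis. Each genotype therefore has 4 arrays, 1 per combination of tissue and diet, and the comparison rests on 4 pairs matched for tissue and diet. Strain, age, the deleted segments and the number of founder lines were not given in the sources used here. No combination was repeated, so p-values rest on variation over all 16 arrays that the fitted terms leave out, not on repeated pools. A genotype difference that changes with diet adds to the error over all 4 pairs. Fewer cells of a type and less RNA per cell cannot be told apart in such pools.

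STAT4 and STAT6 are signal-activated transcription factors with contrasting inputs. STAT4 carries the signal of interleukin-12 (IL-12) and drives interferon-gamma (IFN-γ) production in T helper 1 cells and natural killer (NK) cells. STAT6 carries the signals of IL-4 and IL-13 and drives T helper 2 differentiation and alternative activation of macrophages. Both bind paired TTC and GAA half-sites, with a longer spacer preferred by STAT6. In CD11b-positive cells STAT6 responses are known from macrophages and eosinophils, and STAT4 is best known from lymphocytes. A difference that both knockouts share against wild type cancels in this comparison.

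Signals below are log2 values over the 75th percentile of their array, so 0 is a bright level, and most printed differences are arrays labelled STAT4 knockout minus STAT6 knockout on that log2 scale. Levels of different probes are not compared. Tests are limma's, two-sided, with Benjamini-Hochberg adjustment over 28783 features, and a gene was called at an adjusted p under 0.05. Median signals ran from 69.4 to 164 over the 8 arrays. The STAT6 knockout marrow arrays had the fewest probes well above background, 68.6% on the control diet and 59.7% on high-fat diet, against 76.9% to 85.3% on the other 6. In each tissue the arrays labelled STAT4 knockout shared a slide (1 scan time in the file headers) with wild type, and the STAT6 knockout arrays shared another with HDC knockout, so genotype and slide cannot be told apart. Some arrays stood apart from their labels. The 2 control-diet arrays labelled STAT4 knockout were low for Y-linked genes, and the 2 high-fat ones were far less so. Within that label diet therefore cannot be told apart from this difference between pools. Y-linked signal also reached low values among the HDC knockout arrays. The high-fat spleen array labelled STAT4 knockout correlated better with the marrow arrays than with the other spleen arrays (mean r 0.97 against 0.947 across features, which are not independent).

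Promoters of 3 genes of cytokine signalling are shown because those genes had lower signal on high-fat arrays labelled STAT4 knockout and carry a STAT half-site pair. They are Il4 (the STAT6-activating cytokine), Il5ra (the eosinophil receptor for IL-5) and Cish (a STAT-induced feedback inhibitor). None of the 3 was called. The promoter of Pam, the only gene called on high-fat diet, is also shown. Because the 3 were picked for carrying a pair, their matches cannot show whether motif and signal go together. The window of Nab2, the gene next to Stat6, holds no such pair, although Nab2 was also lower on those high-fat arrays. Sequences are from RefSeq on GRCm38.p6, 300 bases each around the start of the gene. Il4 lies at chr11:53617289-53617588 on the minus strand and Il5ra at chr6:106748988-106749287 on the minus strand. Cish lies at chr9:107296409-107296708 on the plus strand and Pam at chr1:98095597-98095896 on the minus strand. Capitals mark matches to TTCNNNGAA, the general STAT motif, or to the same half-sites set 4 bases apart, the longer form preferred by STAT6. Both motifs read the same on either strand and do not overlap each other in these windows.
Il4: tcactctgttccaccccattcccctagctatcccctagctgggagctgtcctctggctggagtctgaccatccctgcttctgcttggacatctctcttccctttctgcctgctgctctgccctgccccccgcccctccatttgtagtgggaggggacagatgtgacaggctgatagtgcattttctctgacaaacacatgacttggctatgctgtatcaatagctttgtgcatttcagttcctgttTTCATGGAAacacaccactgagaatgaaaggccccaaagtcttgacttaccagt
Il5ra: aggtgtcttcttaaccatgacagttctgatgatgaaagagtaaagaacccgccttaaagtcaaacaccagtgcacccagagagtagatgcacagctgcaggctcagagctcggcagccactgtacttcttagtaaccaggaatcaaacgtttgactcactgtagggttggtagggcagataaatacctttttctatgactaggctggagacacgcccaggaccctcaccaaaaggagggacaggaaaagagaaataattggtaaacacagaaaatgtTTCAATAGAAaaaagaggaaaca
Cish: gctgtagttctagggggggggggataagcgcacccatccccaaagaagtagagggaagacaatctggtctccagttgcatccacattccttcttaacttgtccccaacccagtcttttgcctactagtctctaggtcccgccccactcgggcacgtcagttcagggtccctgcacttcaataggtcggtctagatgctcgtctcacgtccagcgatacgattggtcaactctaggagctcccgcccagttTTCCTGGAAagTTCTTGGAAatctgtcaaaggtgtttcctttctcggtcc
Pam: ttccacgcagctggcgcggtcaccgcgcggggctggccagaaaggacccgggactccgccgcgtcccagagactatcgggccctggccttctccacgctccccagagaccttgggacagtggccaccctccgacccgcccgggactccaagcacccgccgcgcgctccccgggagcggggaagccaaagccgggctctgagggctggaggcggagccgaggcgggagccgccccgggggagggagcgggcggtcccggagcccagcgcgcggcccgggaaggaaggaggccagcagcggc

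The window of Cish holds 2 matches to TTCNNNGAA, that of Il4 holds 1, that of Il5ra holds 1 match to the longer form, and that of Pam holds neither. A promoter was found for 14806 of the 18665 tested genes with a symbol. Of those windows 7.73% hold TTCNNNGAA and 5.92% hold the longer form. Among the listed STAT6 targets 5 of 19 windows (26.3%) hold TTCNNNGAA and 5 of 19 hold the longer form. Among listed STAT4 targets the counts were 2 of 6 (33.3%) and 0 of 6. Among genes of the IFN-γ response they were 8 of 22 (36.4%) and 2 of 22 (9.09%). A match describes letters and is neither a shown site nor a cause.

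Neither targeted gene was called between the genotypes, and Stat4 was higher, not lower, on the arrays labelled STAT4 knockout in all 4 pairs. Stat4 signal on the arrays labelled STAT4 knockout was 0.56 (spleen, control), 3.51 (spleen, high-fat), 0.41 (marrow, control) and 2.74 (marrow, high-fat). On the STAT6 knockout arrays it was 0.00, 0.74, −0.07 and 0.17 in the same order. The highest Stat4 signals of the 8 arrays were those of the same label on high-fat diet, above the wild-type range of 0.17 to 1.33 and above the HDC knockout range of −0.89 to 1.20. The control-diet arrays labelled STAT4 knockout lay inside the wild-type range. Means were 1.81 ± 1.56 and 0.21 ± 0.37 (SD, n = 4), which differed by 1.60 (SE 0.62, adjusted p = 0.255), with a two-sided exact permutation p of 0.0857, and 4 arrays against 4 allow none below 0.0286. The Stat4 difference over 4 pairs was 1.04 without the high-fat spleen pair and 2.98 without both control-diet arrays labelled STAT4 knockout. On high-fat diet alone the difference was 2.67 (SE 0.35, adjusted p = 0.116, 2 of 2 pairs) and on the control diet 0.52. Whether the single Stat4 probe lies outside the deleted segment is not known here, so it does not check the label.

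Stat6 was not lowest on all STAT6 knockout arrays. Its brightest probe read 2.57, 3.95, 2.34 and 4.12 on the arrays labelled STAT4 knockout and 2.79, 2.54, 3.04 and 2.69 on the STAT6 knockout arrays. The groups overlap, because the control-diet arrays labelled STAT4 knockout lay below their STAT6 knockout partners and, like all STAT6 knockout arrays, below the wild-type range of 3.44 to 4.14. The difference over 4 pairs was 0.48 (SE 0.39, adjusted p = 0.78; exact permutation p = 0.4). It was 0.07 without the high-fat spleen pair and 1.23 without both control-diet arrays labelled STAT4 knockout. It was 1.42 on high-fat diet (SE 0.37, adjusted p = 0.116) and −0.46 on the control diet. A second Stat6 probe read −3.58, −2.91, −4.13 and −2.68 against −3.95, −4.46, −4.38 and −5.13 (exact permutation p = 0.0571). The other read −2.31, −1.18, −2.69 and −0.37 against −2.11, −2.46, −1.38 and −2.11 (exact permutation p = 0.629). All 3 probes were highest on both high-fat arrays labelled STAT4 knockout, which the STAT6 knockout arrays did not reach. Itgam, which encodes CD11b, was 4.63, 6.05, 5.87 and 5.38 against 4.68, 3.92, 5.95 and 6.06, a difference of 0.33 (SE 0.42, adjusted p = 0.93). CD11b transcript was bright on all 8 arrays, with the lowest signal on the STAT6 knockout high-fat spleen array.

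**Figure D1:**
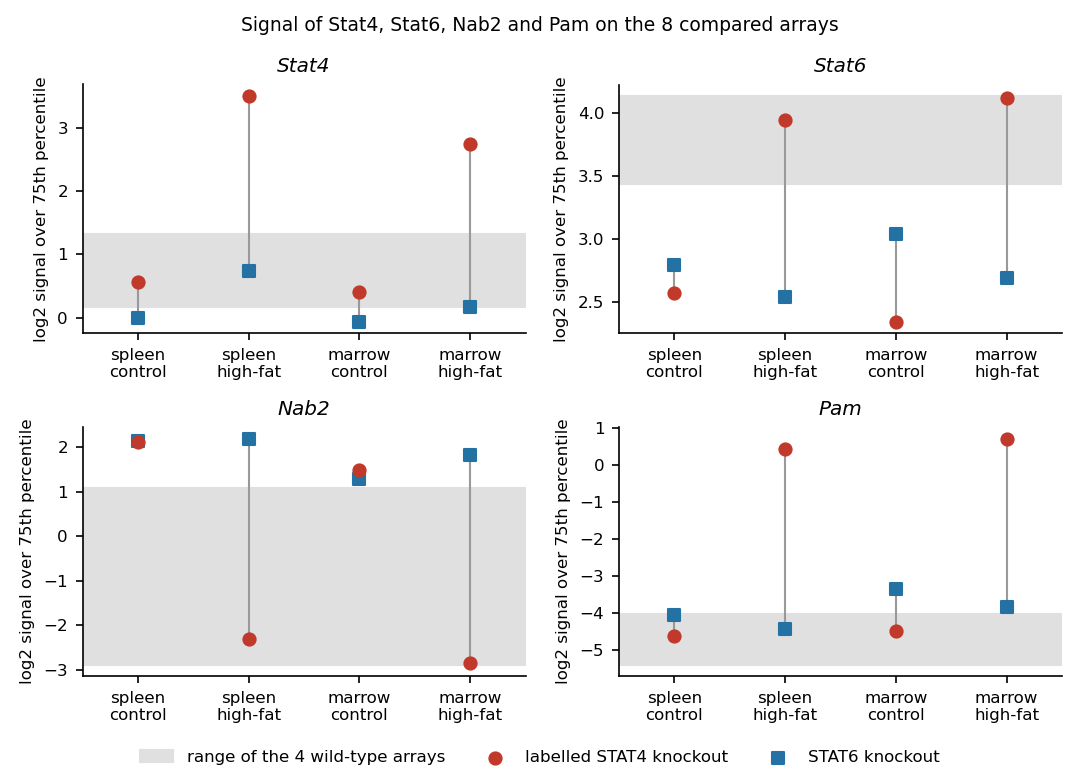
Signal (log2 over the 75th percentile of each array) of Stat4, Stat6, Nab2 and Pam in each tissue and diet, with circles for arrays labelled STAT4 knockout, squares for STAT6 knockout and a grey band for the range of the 4 wild-type arrays. In all 4 genes the pairs lie farther apart on high-fat than on control diet, and the Pam signals of 0.42 and 0.71 lie above the wild-type band.

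On high-fat diet 1 gene was called, Pam. Within 1 genotype label its level split by diet, which there cannot be told apart from the difference in Y-linked signal. Pam encodes peptidylglycine alpha-amidating monooxygenase, which amidates peptide hormones. Its signal was −4.62, 0.42, −4.49 and 0.71 on the arrays labelled STAT4 knockout and −4.06, −4.42, −3.36 and −3.83 on the STAT6 knockout arrays. Both high-fat arrays labelled STAT4 knockout were far above every other array of the 8, while their control-diet counterparts were inside the wild-type range of −5.39 to −4.03. The gene was higher by 4.69 (SE 0.35, adjusted p = 0.0425, 2 of 2 pairs), the only call among 28783 features (0.00347% called). Quantile normalization, or Y-linked signal as a covariate, ended the call. The difference between diets was 5.54 (SE 0.50, adjusted p = 0.077) and was not called. Leaving out any 1 of the 8 arrays ended the call (adjusted p 0.128 to 0.479) with values of 4.36 to 5.02; without the spleen array nearer the marrow arrays the value was 4.54.

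Nab2, a corepressor of EGR transcription factors and the gene next to Stat6 on chromosome 10, had the opposite pattern among the compared arrays. Its signal was 2.13, −2.32, 1.49 and −2.85 on the arrays labelled STAT4 knockout and 2.15, 2.20, 1.30 and 1.83 on the STAT6 knockout arrays. Only the high-fat arrays labelled STAT4 knockout were low among these, and they lay inside the wild-type range of −2.89 to 1.09. All STAT6 knockout arrays and both control-diet arrays labelled STAT4 knockout lay above that range. HDC knockout ran from −4.09 to 1.26. The high-fat difference was −4.61 (SE 0.42, adjusted p = 0.094, 2 of 2 pairs), or −4.24 without the spleen array nearer the marrow arrays, and the difference between diets was −4.69 (adjusted p = 0.313). The high-fat difference was called in 4 of 9 other fits that left out no single array. Among these were median scaling (−4.85, adjusted p = 0.0242) and another background correction, normexp (−4.09, adjusted p = 0.000968). With 1 array left out it ran from −5.22 to −3.99 and was not called. Normexp also called the Nab2 difference between diets (−4.25, adjusted p = 0.0167). A second, dim Nab2 probe read −5.71, −6.98, −6.53 and −6.09 against −6.65, −6.82, −8.23 and −7.58 and did not show this pattern. Of 100 tested neighbours of Stat4 and 100 of Stat6, 50 on each side, none was called in the main fits of the 7 comparisons. Only Nab2 and, near Stat4, Pgap1 (−2.86, adjusted p = 0.116) differed by more than 2 log2 units on high-fat diet among these neighbours. Pgap1, an enzyme of GPI anchor remodelling named after its value was seen, had pair values of −4.48 against 0.56 in spleen and −4.48 against −3.80 in marrow.

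Il5ra and Il4 had lower signal on both high-fat arrays labelled STAT4 knockout, and neither was called. Il5ra was 0.91, −4.50, −0.21 and −4.10 against −1.06, −0.88, −0.93 and −1.32. The control-diet arrays labelled STAT4 knockout were the highest of the 8 and the high-fat ones the lowest, so the groups overlap. The former lay above and the latter below the wild-type range of −3.39 to −0.77, and HDC knockout ran from −4.43 to −0.56. The high-fat difference was −3.20 (SE 0.44, adjusted p = 0.116), from −3.61 in spleen and −2.78 in marrow, and the difference between diets −4.54 (adjusted p = 0.313). Il4 was 0.27, −4.18, 0.36 and −3.00 against −0.12, −0.96, −0.48 and −1.12. Again the high-fat arrays labelled STAT4 knockout were the lowest of the 8. They lay below the wild-type range of −2.89 to 0.05, and the control-diet ones lay above it. HDC knockout ran from −3.41 to −1.55. The high-fat Il4 difference was −2.55 (SE 0.39, adjusted p = 0.116), from −3.21 in spleen and −1.89 in marrow. Axin2, a feedback gene of Wnt signalling, was not well above background on either high-fat array labelled STAT4 knockout and was at least 5.12-fold higher on the STAT6 knockout arrays (adjusted p = 0.116). This bound, like those below, sets the brighter mean against the lowest signal well above background or the probe's own, whichever was higher. The fitted Axin2 difference was −3.22, and −0.67 with normexp background correction, another way of removing background.

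The following genes were chosen after their values were seen, from those with the smallest p among genes well above background on all 8 arrays in the high-fat comparison. Mnd1, a meiotic recombination factor, read 0.33, 2.87, 1.08 and 3.40 against 0.49, 0.50, 0.43 and 1.20. Hdac4, a histone deacetylase, read 1.10, 2.48, 0.81 and 2.81 against −0.29, 0.20, 0.87 and 0.48. In both genes the 2 high-fat arrays labelled STAT4 knockout were the highest of the 8, with pair means of 2.29 and 2.31 over their partners. Sox13 (2.32) and the insulin gene Ins2 (2.28) differed by similar amounts, although Ins2 was also bright on the STAT6 knockout marrow arrays (1.94 and 1.39) and its marrow pair differed by 0.53. On the lower side stood Luzp1 (−3.30), Selenow (−2.09), P2ry14 (−1.84) and the dendritic cell protease gene Adamdec1 (−2.76). The high-fat arrays labelled STAT4 knockout lay inside the wild-type range for Luzp1 (−2.24 to −1.07) and P2ry14 (−3.13 to −0.27). They lay below it for Selenow (1.93 to 4.74), and for Adamdec1 (−4.37 to 1.65) in marrow only. All STAT6 knockout arrays lay above the wild-type range for Luzp1. So did both control-diet arrays labelled STAT4 knockout (−0.44 and 1.46) and all HDC knockout arrays (0.91 to 2.18). Each of these 8 genes had an adjusted p of 0.116. Over all features on high-fat diet 5658 were higher (19.7%) and 773 lower (2.69%) at an unadjusted p under 0.05.

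On the control diet 2 genes were called, both Y-linked and both lower on the arrays labelled STAT4 knockout. Ddx3y, an RNA helicase, was −7.42, 1.12, −5.87 and 0.67 on the arrays labelled STAT4 knockout and 1.57, 1.54, 1.80 and 1.03 on the STAT6 knockout arrays. Eif2s3y, a translation initiation factor subunit, was −5.79, 1.34, −3.54 and 1.80 against 2.43, 2.36, 3.18 and 3.20. In both genes the 2 control-diet arrays labelled STAT4 knockout were lowest, below the wild-type ranges of 1.33 to 2.22 and 2.24 to 3.34, and the high-fat arrays of the same label were much nearer to their partners. Ddx3y fell by 8.33 (SE 0.48) and Eif2s3y fell by 7.47 (SE 0.42), each with an adjusted p of 0.00293 and in 2 of 2 pairs. These were the only calls of the comparison (0.00695% of features). Leaving out any of the 4 control-diet arrays ended both calls, at adjusted p from 0.0702 to 0.438 with values from −6.66 to −9.08. Leaving out any high-fat array kept both calls. Both genes were well above background on 1 of those 2 low arrays and not on the other. The HDC knockout arrays, also labelled male, reached down to −9.14 for Ddx3y and −8.62 for Eif2s3y.

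Uty, a Y-linked histone demethylase gene, was −6.83, −3.25, −7.31 and −4.32 against −3.72, −3.97, −4.32 and −4.35. It was not well above background on either control-diet array labelled STAT4 knockout, and was at least 5.13-fold higher on the STAT6 knockout partners (adjusted p = 0.175). Its fitted difference was −3.05, and −1.44 with normexp background. Xist, which silences an X chromosome in female cells, was −2.93, −6.81, −4.20 and −5.44 against −8.93, −9.16, −8.03 and −7.35. All 4 arrays labelled STAT4 knockout exceeded all 4 STAT6 knockout arrays, as for 5.73% of all features, and most on the control diet. There Xist was at least 7.80-fold higher on the arrays labelled STAT4 knockout (adjusted p = 0.0652) and not well above background on the STAT6 knockout arrays. Its fitted difference was 4.91, called with median scaling (adjusted p = 0.0196), and 0.70 with normexp background (adjusted p = 0.649). HDC knockout arrays reached down to −7.68 for Uty and up to −3.55 for Xist. The labels give male mice for all 16 arrays, and the sex of the pools was not tested otherwise. Over all features 1738 were higher (6.04%) and 1042 lower (3.62%) on the control diet at an unadjusted p under 0.05.

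**Figure D2:**
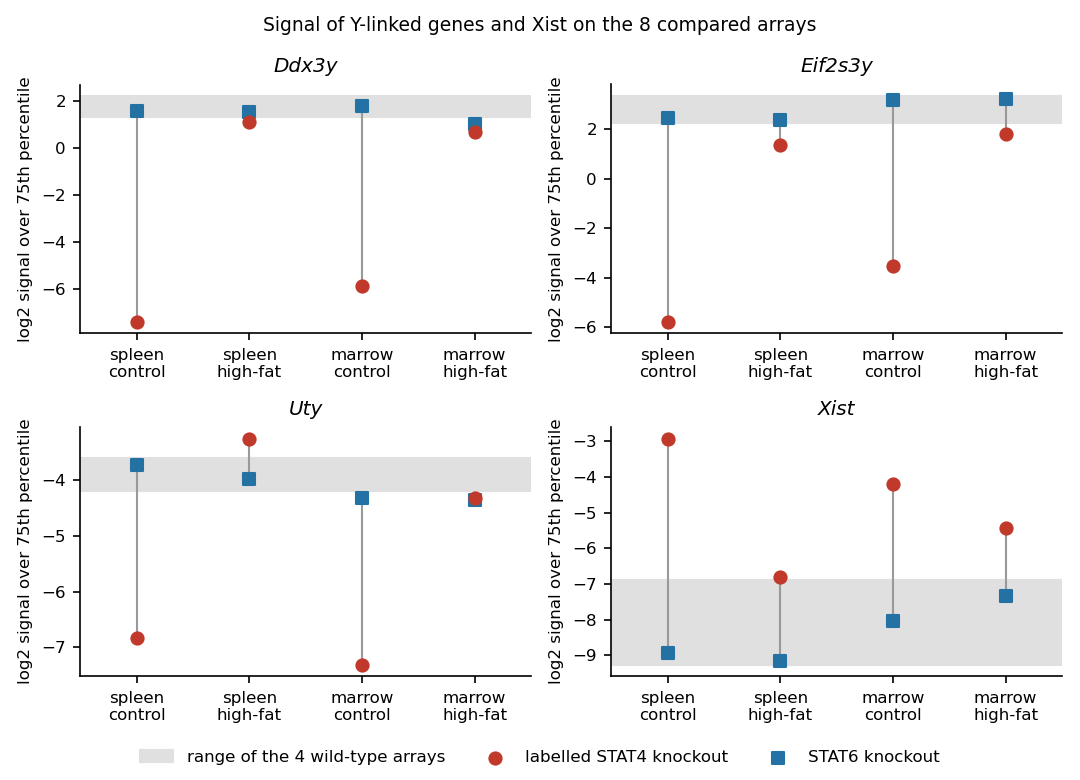
Signal (log2 over the 75th percentile of each array) of Ddx3y, Eif2s3y, Uty and Xist, with circles for arrays labelled STAT4 knockout, squares for STAT6 knockout and a grey band for the wild-type range. The control-diet circles of the Y-linked genes lie far below the band, and their Xist signals of −2.93 and −4.20 lie above it.

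No gene of the IL-12 and STAT4 list was called, and its median difference over 4 pairs was −0.06 against 0.14 for all features. The list has 26 genes, of which 25 were tested, and 0% of features were called over 4 pairs. At an unadjusted p under 0.05 only Stat4 passed, on the higher side, where 13.3% of all features did; none passed on the lower side, where 0.691% did. The ligands Il12a, Il23a, Il18, Il27 and Ebi3 had a median of 0.06 and the receptors 0.16. Il12a, a subunit of IL-12, was −3.55, −5.13, −1.55 and −3.31 against −4.20, −3.66, −2.98 and −2.93. It was higher in both control-diet pairs (0.65 and 1.43) and lower in both high-fat pairs (−1.47 and −0.38), with overlapping groups. The IL-12 receptor chains Il12rb1 and Il12rb2 differed by −0.07 (SE 0.29) and −0.06 (SE 0.32).

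Effector genes of the STAT4 axis differed most in the high-fat spleen pair. Ifng, the cytokine made under STAT4, was 1.98, −1.94, −0.38 and −2.47 on the arrays labelled STAT4 knockout and 3.05, 2.46, −2.28 and −1.47 on the STAT6 knockout arrays. It was high on 3 of 4 spleen arrays and low on the marrow arrays, and the high-fat spleen array labelled STAT4 knockout lay at marrow level. The high-fat difference was −2.70 (adjusted p = 0.125) and that over 4 pairs −1.14 (SE 0.77, adjusted p = 0.664). Tbx21, the T helper 1 factor T-bet, was −0.36, −3.94, −3.20 and −4.40 against −0.32, −0.41, −4.30 and −4.26. Its high-fat difference of −1.84 came from spleen (−3.53) more than marrow (−0.14). Eomes (−1.97) and the cytotoxic protease Gzmb (−1.54) had the same split, with spleen pair differences of −3.98 and −3.66 and marrow ones of 0.04 and 0.57. None was called. On high-fat diet 2 list genes were higher and 4 lower at an unadjusted p under 0.05, where 19.7% of all features were higher and 2.69% lower.

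The list of the IFN-γ response, with 29 of 30 genes tested, had a median of −0.10, and 0 genes passed an unadjusted p under 0.05 over 4 pairs. Its receptor Ifngr1 was bright and close in both groups, with a difference of 0.01 (SE 0.30). Irf1, an interferon-induced transcription factor, differed by −0.19 (SE 0.25). On high-fat diet the GTPases Gbp4 (−2.52, adjusted p = 0.119) and Iigp1 (−1.25, adjusted p = 0.171) were lower at an unadjusted p under 0.05. Gbp4 read 0.41, −3.14, −2.54 and −4.40 against −0.05, 0.53, −4.01 and −3.04. Its spleen signal was low on the high-fat array labelled STAT4 knockout.

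Some interferon-response genes read below wild type on all 8 arrays, a difference that a comparison between the genotypes cancels. Igtp, an IFN-γ-inducible GTPase, ran from 0.78 to 2.36 over the 8 arrays and from 3.33 to 5.54 over the 4 wild-type arrays. For 8 of 29 IFN-γ response genes (27.6%) all 8 arrays lay below all 4 wild-type arrays, against 98 of all features (0.34%). They were Irf1, Gbp2, Iigp1, Irgm1, Igtp, Tgtp1, Psmb9 and Tap1. Of 25 type I interferon genes 8 (32%) did so, namely Ifit1, Ifit3, Oas2, Oasl2, Irf7, Rtp4, Zbp1 and Xaf1. Oas1a, which makes an antiviral second messenger, ran the other way, from 2.79 to 3.83 over the 8 arrays and from −7.90 to −6.56 over wild type. Between the 2 genotypes Igtp differed by −0.23 (SE 0.49) and Oas1a by 0.03 (SE 0.49). These counts have no test, and wild type shares a slide with the arrays labelled STAT4 knockout but not with the STAT6 knockout arrays.

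The IL-4 and STAT6 list, with 39 of 43 genes tested, had a median of −0.10 over 4 pairs and no call. At an unadjusted p under 0.05, 2 of its genes were higher and none lower. Il13ra2, the decoy receptor of IL-13, was −5.83, −5.35, −4.57 and −5.69 against −6.07, −6.05, −8.19 and −7.50. All 4 arrays labelled STAT4 knockout exceeded all STAT6 knockout arrays, by 1.59 (SE 0.37, adjusted p = 0.0865), and 2 STAT6 knockout arrays were not well above background. The groups did not overlap in this direction for 5.73% of all features, and in the other for 0.268%. Ccl17, a STAT6-induced chemokine, was −4.77, −5.02, −5.28 and −4.90 against −5.11, −4.85, −6.27 and −7.01, a difference of 0.82 (SE 0.30, adjusted p = 0.22). Again the lowest signals were those of the STAT6 knockout marrow arrays, and 2 STAT6 knockout arrays were not well above background. The receptors Il4ra (0.21, SE 0.30) and Il13ra1 (−0.10, SE 0.38) differed by less than their errors.

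The 9 kinase and factor genes of the IL-4 axis had a median difference of −1.11 on high-fat diet, against 0.91 on the control diet. By pair the high-fat median was −2.18 in spleen and −0.04 in marrow. Irf4, a macrophage and lymphocyte factor, was 3.70, −0.10, 1.62 and −1.23 against 2.60, 3.33, 0.46 and −0.48. Pparg, a lipid-sensing factor of alternative activation, was −0.58, −2.36, −1.43 and −2.76 against −1.26, 0.15, −2.58 and −2.37. In both genes the control-diet arrays labelled STAT4 knockout were above their partners and the high-fat ones below. The high-fat differences were −2.09 (adjusted p = 0.192) for Irf4 and −1.45 (adjusted p = 0.125) for Pparg, with marrow pair values of −0.75 and −0.39. Gata3, the T helper 2 factor, was 1.33, −2.95, −1.98 and −3.52 against 1.23, 1.21, −4.00 and −3.86. Its high-fat spleen pair difference was −4.16, but its high-fat mean of −1.91 had an adjusted p of 0.229. Over the whole list 5 genes were higher and 7 lower on high-fat diet, and 4 higher and none lower on the control diet, at an unadjusted p under 0.05. Of all features 19.7% and 2.69% did so on high-fat diet, and 6.04% and 3.62% on the control diet.

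Classical STAT6 targets of alternative activation were not separated by genotype. Their median difference was 0.00 over 24 tested targets. Arg1, the arginase of alternatively activated macrophages, was not well above background on any array labelled STAT4 knockout and was so on 1 STAT6 knockout array, so it has no usable fold. Chil3 (Ym1) was bright on all 8 arrays, 6.62, 7.12, 6.83 and 6.42 against 6.45, 5.52, 7.25 and 7.10. Its groups overlap, with a difference of 0.17 (SE 0.35), and it is also a product of neutrophil precursors. Retnla, the secreted Fizz1 protein gene, differed by −0.26 (SE 0.57) and the mannose receptor Mrc1 by 0.04 (SE 0.72). The Mrc1 difference nonetheless changed sign, from 1.53 on the control diet to −1.44 on high-fat diet (adjusted p = 0.224 for the latter). Alox15, a lipoxygenase of eosinophils and IL-4-treated macrophages, was −1.44, −4.88, 0.66 and −2.47 against −1.52, −3.41, 0.84 and −0.26. Its high-fat difference of −1.84 had an adjusted p of 0.116, and both genotypes read lower on high-fat than on control diet in each tissue.

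**Figure D3:**
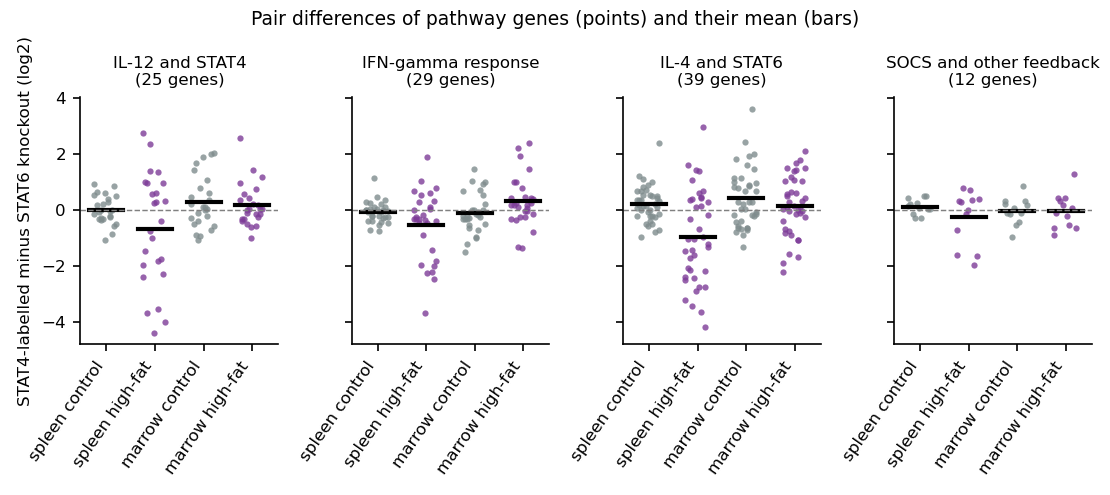
Difference within each pair (log2, arrays labelled STAT4 knockout minus STAT6 knockout) for every tested gene of 4 pathway lists, as points, with the mean as a bar. The high-fat spleen pair has the widest spread and the lowest means, −0.65 for IL-12 and STAT4 genes and −0.96 for IL-4 and STAT6 genes.

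All 12 genes of the SOCS and other feedback list were tested, with a median of −0.01 and none at an unadjusted p under 0.05 over 4 pairs. Cish, whose promoter is shown with those of Il4 and Il5ra, was 1.94, −0.20, 0.79 and −0.38 against 1.79, 1.41, 0.56 and 0.52. The high-fat arrays labelled STAT4 knockout were the lowest of the 8, with a high-fat difference of −1.25 (adjusted p = 0.166), and the control-diet difference was 0.19. Socs1, an inhibitor of IFN-γ and IL-4 signalling, ran from 0.50 to 1.00 and 0.53 to 0.92 and differed by 0.11 (SE 0.24). On the STAT list of 7 genes Stat4 and Stat3 were higher at an unadjusted p under 0.05 (13.3% of all features), and the list median was 0.24. Stat3, the carrier of IL-6 and IL-10 signals, was 3.11, 3.33, 3.12 and 3.34 against 2.49, 2.52, 2.72 and 2.76. The groups do not overlap and all 4 pairs were higher, by 0.60 (SE 0.24), but the adjusted p was 0.287. Over all features 5.73% did not overlap in this direction and 15.1% were higher in all 4 pairs. Stat5b (0.24, SE 0.24) and Stat2 (−0.13, SE 0.44) were nearer 0.

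Over all 4 pairs no feature was called, with a smallest adjusted p of 0.0728 and 783 features under 0.1. At an unadjusted p under 0.05, 4025 features passed against 1439 expected by chance, and 3826 of them were higher on the arrays labelled STAT4 knockout. All 4 pairs were higher for 4342 features (15.1%) and lower for 483 (1.68%). The excess lay in dim probes. Of 18982 features well above background on all 8 arrays, 321 were higher and 125 lower, with a median of 0.03. Of the other 9801, 3505 were higher and 74 lower, with a median of 0.66. The split used detection on the compared arrays themselves. A feature at background only on STAT6 knockout arrays therefore falls among the 9801, so the split and the direction are not independent. On the higher side the smallest p belonged to the 5 features CK137956, Sh3d19, Olfr509, Wfdc2 and Slitrk2, with differences from 1.73 to 2.19 (adjusted p = 0.0728 each). With normexp background they differed by 0.34, 0.37, 0.36, 0.19 and 0.36 in the same order. Each was well above background on all arrays labelled STAT4 knockout and on 1 or 2 of the STAT6 knockout arrays. Wfdc2, a secreted protease inhibitor gene, was −4.62, −4.89, −5.31 and −4.71 against −5.13, −5.37, −8.36 and −7.60. The STAT6 knockout marrow arrays were lowest, as in CK137956, Sh3d19 and Slitrk2.

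**Figure D4:**
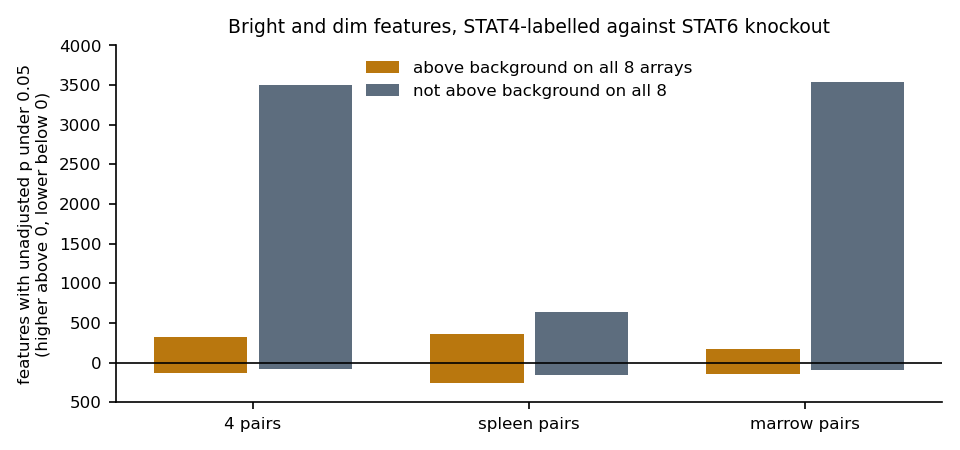
Number of features at an unadjusted p under 0.05, higher on arrays labelled STAT4 knockout above the line and lower below it, for all 4 pairs and for the spleen and marrow pairs. Features not above background on all 8 arrays supply 3505 of the 3826 higher ones over 4 pairs.

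On the lower side the 5 smallest p over 4 pairs were those of Ang, Wt1, Syne4, Sva and Wscd2. Ang, which encodes the ribonuclease angiogenin, was −1.67, −1.87, −1.49 and −0.81 against −0.93, −0.67, 0.96 and 0.70. It was lower in all 4 pairs, by more in marrow, with a mean of −1.48 (SE 0.29, adjusted p = 0.0728). The groups overlap, since the high-fat marrow array labelled STAT4 knockout (−0.81) lay above the STAT6 knockout control spleen array (−0.93). Sva was well above background on no array labelled STAT4 knockout and on 3 of the 4 STAT6 knockout arrays, where it was at least 2.27-fold higher (adjusted p = 0.0806). Wscd2 differed by −1.16 (SE 0.27, adjusted p = 0.0853). With normexp background the differences were −0.31 for Wt1, −0.48 for Sva and −0.75 for Wscd2. Genes bright on all 8 arrays, chosen after their values were seen, included the hyaluronidase gene Cemip2 at −0.91, −0.23, −0.75 and −0.20 against −2.11, −2.45, −1.90 and −1.56. Its groups do not overlap and its difference was 1.48 (SE 0.30, adjusted p = 0.0742), with all STAT6 knockout arrays at or below the wild-type mean of −1.42. Cpd (1.44), Rcor1 (1.15) and Pcyt1a (1.50) also did not overlap, with adjusted p of 0.075, 0.077 and 0.0793. Over all features 5.73% did not overlap in this direction, and these genes were picked for small p in the same comparison. Insig1, an inhibitor of cholesterol synthesis, was higher in all 4 pairs (1.54, SE 0.35, adjusted p = 0.0844), and the coagulation factor gene F9 lower (−1.41, SE 0.34, adjusted p = 0.091).

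Spleen and marrow gave different leading genes, and neither had a call. In spleen 1397 features passed an unadjusted p under 0.05, against 1439 expected, and the smallest adjusted p was 0.732. The leading lower genes were digestive enzymes of the exocrine pancreas. Amy2a5, pancreatic amylase, was −4.25 and −5.36 on the STAT4-labelled spleen arrays against 0.91 and −0.05 on those of STAT6 knockout, control diet first. The STAT6 knockout spleen arrays exceeded every wild-type array (−6.43 to −1.03), and the difference was −5.23 (SE 0.76, adjusted p = 0.732). Try4, a trypsinogen, differed by −3.50 (adjusted p = 0.732), and by −2.12 with normexp background. Pnliprp1, a lipase relative, was not well above background on either spleen array labelled STAT4 knockout and was at least 4.39-fold higher on those of STAT6 knockout (adjusted p = 0.845); its fitted difference was −2.58, and −0.68 with normexp background. Of 24 pancreas genes listed after these values were seen, 23 were lower in the control-diet spleen pair, with a list mean of −1.77, and 11 in the high-fat one (−0.43). The 4 exocrine genes Cpa1, Try5, Amy1 and Pnlip had spleen control differences of −3.26, −3.55, −3.53 and −3.68. Whether pancreatic tissue in the spleen pools accounts for these values was not tested.

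For STAT4 against STAT6 in marrow 3942 features passed an unadjusted p under 0.05, and the smallest adjusted p was 0.0531. Quantile normalization gave 76 calls there, and detection on at least 4 of the 8 arrays 138. That filter counts both genotypes together, so a feature detected only on the arrays of 1 genotype can pass it. Wt1, a zinc finger factor of kidney and mesothelium, was −8.53 and −8.67 on the STAT4-labelled marrow arrays, not well above background, against −5.31 and −4.90. It was at least 2.71-fold higher on the STAT6 knockout marrow arrays, and its difference between tissues was 4.33 (SE 0.52, adjusted p = 0.236), or 1.66 with normexp background. Slc44a5, a choline transporter-like gene, was at least 5.76-fold higher there, and Syne4, a nuclear envelope gene, differed by −3.32 (SE 0.47; adjusted p = 0.0531 each). Syne4 in marrow was −1.33 and −1.82 against 1.95 and 1.53, and in spleen −1.25 and −0.21 against −1.55 and −0.38. The HDC knockout arrays, which share the slide of STAT6 knockout, reached 1.66 for Syne4, and wild type at most −0.04. On the higher side CK137956, Wfdc2 and Wscd1 were at least 1.62-, 1.63- and 1.61-fold higher on the arrays labelled STAT4 knockout. With normexp background these 3 differences turned to −0.07, −0.10 and −0.12, and those of Wt1 and Slc44a5 were −1.14 and −1.17. Among bright genes, chosen after their values were seen, the osteoclast protease Ctsk was 2.00 and 1.41 against −0.93 and −0.58 (2.46, SE 0.55, adjusted p = 0.0753). Atp6v0d2, an osteoclast and macrophage proton pump subunit, was −1.97 and −2.68 against −4.49 and −4.56 (2.20, SE 0.52, adjusted p = 0.0822). No feature was called for the difference between tissues (1460 at an unadjusted p under 0.05, smallest adjusted p 0.236) or between diets (4028, 0.077).

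Cell type markers separated the high-fat spleen pair from the other 3. Of 16 B cell genes all 16 were lower on that array labelled STAT4 knockout, with a mean difference of −3.13, while the other pairs had means of 0.59, 1.16 and −0.07. The other spleen arrays of the series had B cell list means of 1.55 to 2.72, against −0.98 for that array. T cell genes (13 of 14 lower, mean −2.53) and NK cell genes (14 of 15 lower, −2.86) had the same direction in that pair. MHC class II genes (11 of 12 lower, −2.03), red pulp macrophage genes (16 of 17 lower, −1.72) and conventional dendritic cell genes (−1.53) did too. Neutrophil primary granule genes were higher there in 8 of 8 (mean 2.02) and secondary granule genes in 9 of 9 (1.62). Of all 28783 features 19935 were higher in that pair, with a median difference of 0.49. Mpo, the granule peroxidase, was 4.67, 6.29, 6.19 and 5.87 against 4.99, 4.45, 5.80 and 6.41. Its high-fat spleen signal on the array labelled STAT4 knockout was at marrow level. In that pair 3711 bright features were higher and 2289 lower by more than 1 log2 unit, against 657 and 697 in the control-diet spleen pair. The part of these cell type markers in the Ifng, Tbx21, Gata3 and Gbp4 values was not tested. Without that pair the fit over 4 pairs again had 0 calls.

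**Figure D5:**
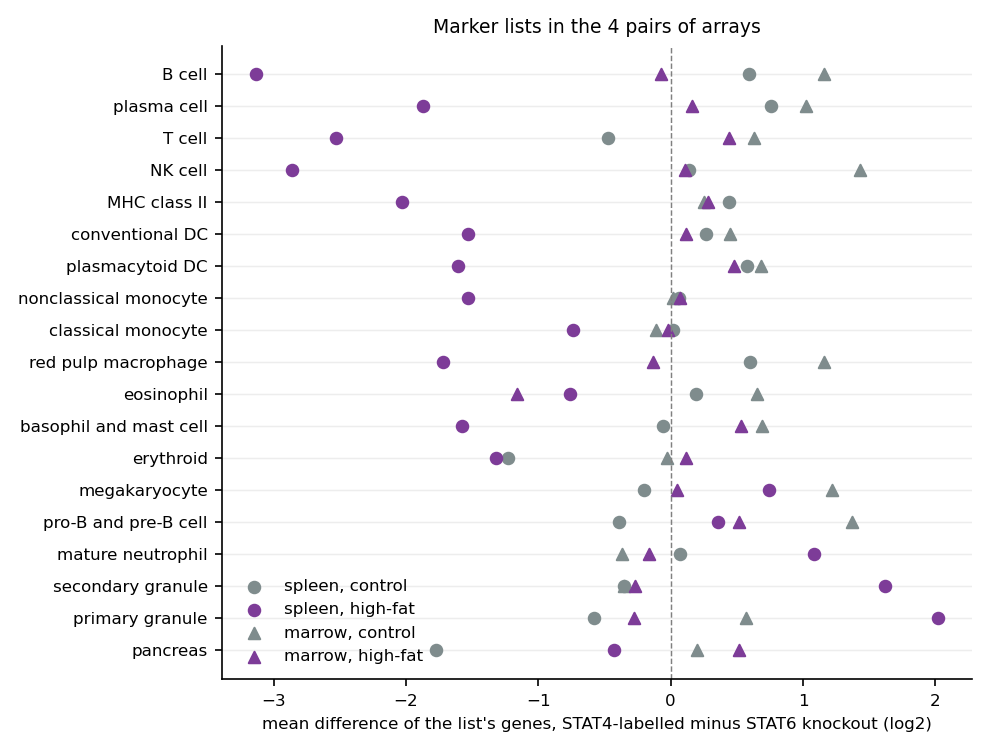
Mean difference of the genes of 19 lists in each pair (log2, arrays labelled STAT4 knockout minus STAT6 knockout), with circles for spleen, triangles for marrow and purple for high-fat diet. The purple circles of lymphocyte and macrophage lists lie left of 0, to −3.13 for B cell genes, and those of granule lists right of 0.

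Other lists differed between pairs. Eosinophil genes averaged 0.19 and 0.65 on the control diet and −0.76 and −1.16 on high-fat diet, spleen first. Ccr3, the eotaxin receptor, was 1.56, −1.49, 0.98 and −2.55 against 0.48, 1.19, 0.11 and −0.71, and like Il5ra it was lowest on both high-fat arrays labelled STAT4 knockout. The granule genes Epx and Prg2 were nearer their partners, with high-fat pair differences of −0.02 and 0.20 for Epx and −0.19 and −0.67 for Prg2. Erythroid genes were lower in both spleen pairs (means −1.23 and −1.32; 12 and 9 of 13 genes) and not in marrow (−0.03 and 0.12). Klf1, the erythroid master factor, was 0.95 and −0.20 on the STAT4-labelled spleen arrays against 2.87 and 2.35. Both STAT6 knockout spleen arrays were above every wild-type array (−2.70 to 0.14), as was the control-diet one labelled STAT4 knockout. Cell cycle genes were lower in the control-diet spleen pair in 25 of 25 (mean −0.87) and higher in the high-fat one in 25 of 25 (mean 1.08). The medians of all features in these pairs were 0 and 0.49. Mki67, the proliferation antigen, differed by −0.62 and 1.53 in spleen and −0.06 and −0.88 in marrow, control diet first. Immediate early genes were lowest in the control-diet marrow pair, at −1.44 for Fos and −1.81 for Jun. The 28S ribosomal RNA gene Rn28s1, chosen after its values were seen, was 6.62, 2.31, 6.55 and 4.03 against 6.50, 5.63, 3.11 and 2.85, so ribosomal signal was not even over the arrays. Its part in the differences was not tested.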

How the data were processed

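RNA of CD11b-positive cells was read on 16 Agilent 1-colour mouse arrays. The deposited values are spot intensity from Agilent Feature Extraction 11.0.1.1, background-subtracted and detrended per array per the file headers. The probe design used mm9 per the file headers. Control spots and outlier-marked spots were left out, with 305 of 39429 probes. Spots of a probe were averaged, and log2 of the deposited intensity minus the 75th percentile of each array was taken. Symbols came from RefSeq accessions (GRCm38.p6), for 27067 probes (69.2%). The brightest probe of a gene was kept, and features well above background on at least 2 of 16 arrays were tested.

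limma 3.58.1 in R 4.3.3 (with data.table, version 1.17.8) was fitted to all 16 arrays. The first 4 comparisons (4 pairs, spleen, marrow, difference between tissues) fitted genotype means and a diet effect separately in spleen and marrow, with 6 residual degrees of freedom. The 3 by diet used all pairwise terms, with 3 residual degrees of freedom. All 7 were adjusted by Benjamini-Hochberg at 0.05. The fit was tested on simulated data. Figures were drawn with matplotlib 3.10.9.

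Named genes were up to 12 per direction (5 outside the 4-pair comparison) with a symbol, an adjusted p under 0.05, 1 direction in every pair, and detection on all arrays of the higher genotype. Where fewer than 3 qualified, the 5 smallest p (3 elsewhere) were named. Stat4, Stat6, their called neighbours, Itgam, sex-linked genes, pathway members and up to 4 members of each other list were added. Members and lists were chosen with earlier results of these data known. Replicate numbers in the labels were not used to pair arrays, since pairs were matched by tissue and diet; the deviations of paired arrays correlated at 0.618, −0.196, 0.292 and 0.378. The precision is limited by 1 array per combination. Alternatives covered scaling, filter, probes, background, prior, slide, Y-linked signal, the fit and left-out arrays. No comparison with HDC knockout was fitted, and its range is given for some genes only.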

Additional observations from a re-analysis of the deposited data

Results flagged for a closer look

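Differences of opposite direction in every pair of 2 tissues or diets were found for 15 of 50 genes and lists examined. Whether that exceeds chance was not tested. Of all 28783 features, 1370 were higher in both spleen pairs and lower in both marrow pairs, and 1319 the reverse. Between diets, 3770 were higher in both high-fat pairs and lower in both control-diet pairs, and 1640 the reverse. Wt1 was 0.83 in spleen and −3.50 in marrow (tested difference, adjusted p = 0.236), and Syne4 0.23 and −3.33 (adjusted p = 0.853). Pam was 4.69 on high-fat and −0.85 on control diet (adjusted p = 0.077), and Stat6 1.42 and −0.46.

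For lists the differences were not tested. Between high-fat and control diet, B cell genes averaged −1.60 and 0.87, red pulp macrophage genes −0.93 and 0.88, eosinophil genes −0.96 and 0.42, stromal and endothelial genes −0.26 and 0.32, type I interferon genes 0.13 and −0.36, and immediate early genes 0.08 and −0.46. Between spleen and marrow, T cell genes averaged −1.50 and 0.54, mature neutrophil genes 0.57 and −0.26, basophil and mast cell genes −0.82 and 0.61, stem and progenitor genes −0.16 and 0.28, and pancreas genes −1.10 and 0.36. The direction within each pair held under all 3 other scalings for B cell and eosinophil genes only. Median scaling turned the high-fat pairs to −0.07 and −0.16 for type I interferon genes and to −0.12 and −0.22 for immediate early genes, whose control-diet spleen pair became 0.01, and the high-fat marrow pair of stem and progenitor genes to −0.10. Quantile normalization turned the high-fat spleen pair to −0.05 for type I interferon and −0.31 for immediate early genes, and the high-fat marrow pair of mature neutrophil genes to 0.23. Normexp background turned the control-diet marrow pair to −0.30 for T cell, −1.30 for pancreas and −0.58 for stromal and endothelial genes. It turned high-fat pairs to −0.09 for immediate early and 0.01 for red pulp macrophage genes in marrow, and to 0.01 for stromal and endothelial genes in spleen; basophil and mast cell genes read 0 in the control-diet spleen pair.

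A single pair lay far from the other 3 in 6 lists. In 5 it was the high-fat spleen pair, with means of 1.62 for secondary granule genes, −1.53 for nonclassical monocyte genes, −1.53 for conventional dendritic cell genes, −1.61 for plasmacytoid dendritic cell genes and −2.03 for MHC class II genes. In the immediate early list it was the control-diet marrow pair, at −0.89. Chance marks about 1 in 20 groups, and the lists share the same arrays.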

How the results depend on the processing

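The comparison over 4 pairs kept 0 calls in every alternative run except all pairwise terms, which called 2 (Ddx3y and Eif2s3y). With the pair as a replicate block it had 0 calls (smallest adjusted p 0.178), without it 0 (0.341), without the high-fat spleen pair 0, and without both control-diet arrays labelled STAT4 knockout 0. Spleen and the difference between tissues kept 0 calls. The count for STAT4 against STAT6 in marrow went from 0 to 76 with quantile normalization and to 138 with detection on at least 4 of 8 arrays. On high-fat diet the count of 1 became 2 with median scaling, 0 with quantile normalization, 3 with normexp, 4 with a trended and robust prior, 0 with Y-linked signal as a covariate and 2 with detection on all 8 arrays, a filter chosen after seeing the data. On the control diet the count of 2 became 3 with median scaling (Xist added), 4 with that prior, 0 with that covariate and 0 with that filter. The difference between diets went from 0 to 3 with detection on at least 4 arrays, 4 with normexp, 4 with the prior and 1 with detection on all 8. Leaving out 1 array gave 0 to 3 calls on the control diet, 0 on high-fat diet and 0 in the other comparisons.

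Of 955 values of 52 named genes under alternatives, 891 kept direction and side of the threshold, 30 newly passed it, 19 no longer passed it and 15 reversed. With normexp the marrow values turned to −0.07 for CK137956, −0.10 for Wfdc2 and −0.12 for Wscd1, B4galnt4 (tissue difference) to 0.11, Vmn1r191 (control diet) to −0.43, and Ror2 to 0.05 on high-fat diet and 0.61 between diets. With the Y-linked covariate, which follows the same arrays, the control-diet values turned to −2.71 for Xist, −2.53 for Dsg1b, 0.71 for Ddx3y and 0.68 for Uty, and those between diets to −0.51 for Ddx3y and 2.94 for Il5ra. Itgam over 4 pairs ranged from −0.15 to 0.81 with 1 array left out and was −0.21 without the high-fat spleen pair. The cause of the other changes was not tested. The median of all features over 4 pairs was 0.14, and 0.04, 0.03 and 0.02 with median scaling, quantile normalization and normexp. A random slide block could not be fitted in the main model and was added with shared genotype terms, where 0 features were called. Dim probes on the STAT6 knockout marrow arrays limit all values near background.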
